A study of Mus musculus with 6 samples.

Results

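The 8 genes described here are Zfpm1 and Zfpm2, which encode the co-factors FOG-1 and FOG-2, and Gata1 to Gata6, which encode the GATA transcription factors. They were taken by gene symbol, through the Entrez gene of each row, from a table of 23748 rows in all, and each gene had 1 row. Log2 expression was measured on microarrays in 2 groups of 3 samples of mouse embryonic fibroblasts, primary connective tissue cells from E14.5 embryos. Cells of one group came from the FOG-2 Rb- knock-in, whose FOG-2, by the title of the study, has lost its binding to the retinoblastoma protein pRb. The other group was wild type. Cells of both genotypes were harvested while proliferating, before any differentiation, in a medium with 20% donor bovine serum. Titles number the 3 samples of each genotype 1 to 3, but no label ties a number to its own embryo or culture. The p-values therefore cover the spread among these 6 samples and no more, and that spread may be technical. Every FOG-2 Rb- title also carries the number 27 and every wild type title the number 18, with no stated meaning, so genotype and what these numbers mark cannot be told apart. The labels name no strain, sex or passage.

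GATA factors bind DNA at sites with the core letters GATA through a pair of zinc fingers, and switch on genes of blood, heart, endoderm, gonad and other lineages. FOG proteins do not bind these sites themselves. They hold on to the amino-terminal zinc finger of a GATA factor and, with the NuRD and CtBP complexes, repress or help to activate the gene it sits on. GATA1, GATA2 and GATA3 are best known from blood cells, where GATA1 works with FOG-1, and GATA4, GATA5 and GATA6 from heart, gut and other mesoderm and endoderm, where GATA4 works with FOG-2. In mouse preadipocytes GATA2 and GATA3 hold back the formation of fat cells.

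Array medians were 5.68 to 5.69 in FOG-2 Rb- and 5.65 to 5.73 in wild type on the log2 scale, and arrays correlated across rows at 0.997 to 0.998 with others of their genotype and at 0.990 to 0.991 with those of the other. Of 10 fibroblast markers, the dimmest, Thy1, was brighter than 71.1% of rows; Vim, an intermediate filament gene, averaged 13.37 in FOG-2 Rb- and 13.32 in wild type. The list was not equal between genotypes: 3 markers fell, namely Pdgfra (-0.90), Thy1 (-0.78) and S100a4 (-0.74) (limma, log2 fold changes). Another 3 rose, namely the matrix genes Col1a1 (0.38), Col3a1 (0.36) and Postn (0.28), and 4 did not pass. By the same test, 8.59% of all rows were lower and 9.44% higher. Xist averaged 11.71 in FOG-2 Rb- and 11.73 in wild type, and the means of the Y-linked Kdm5d, Eif2s3y and Uty lay between 3.35 and 3.65 in both.

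Of the 8 FOG and GATA genes, 3 rose in FOG-2 Rb- cells (Gata4, Gata6 and Zfpm1), 2 fell (Gata2 and Zfpm2), and Gata1, Gata3 and Gata5 did not pass the test. The 5 calls compare with 18% of all 23748 rows, 9.44% higher and 8.59% lower. The test was limma's moderated test across all rows, with Benjamini-Hochberg adjustment and a threshold of 0.05, and every adjusted p below comes from it. The median log2 fold change of the 8 genes was 0.11, beside -0.02 over all rows, and their median absolute log2 fold change was 0.37, beside 0.10. Arrays of the genotypes did not overlap for 6 of the 8 genes, against 35.6% of all rows. Of the 6, 4 lay above wild type, as did 17.6% of all rows, and 2 below, as did 18% of all rows. The same 6 had an unadjusted limma p under 0.05, as did 29.9% of all rows. An exact permutation test of 3 arrays against 3 cannot give a two-sided p under 0.1, and each of these 6 genes gave that value.

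**Figure D1:**
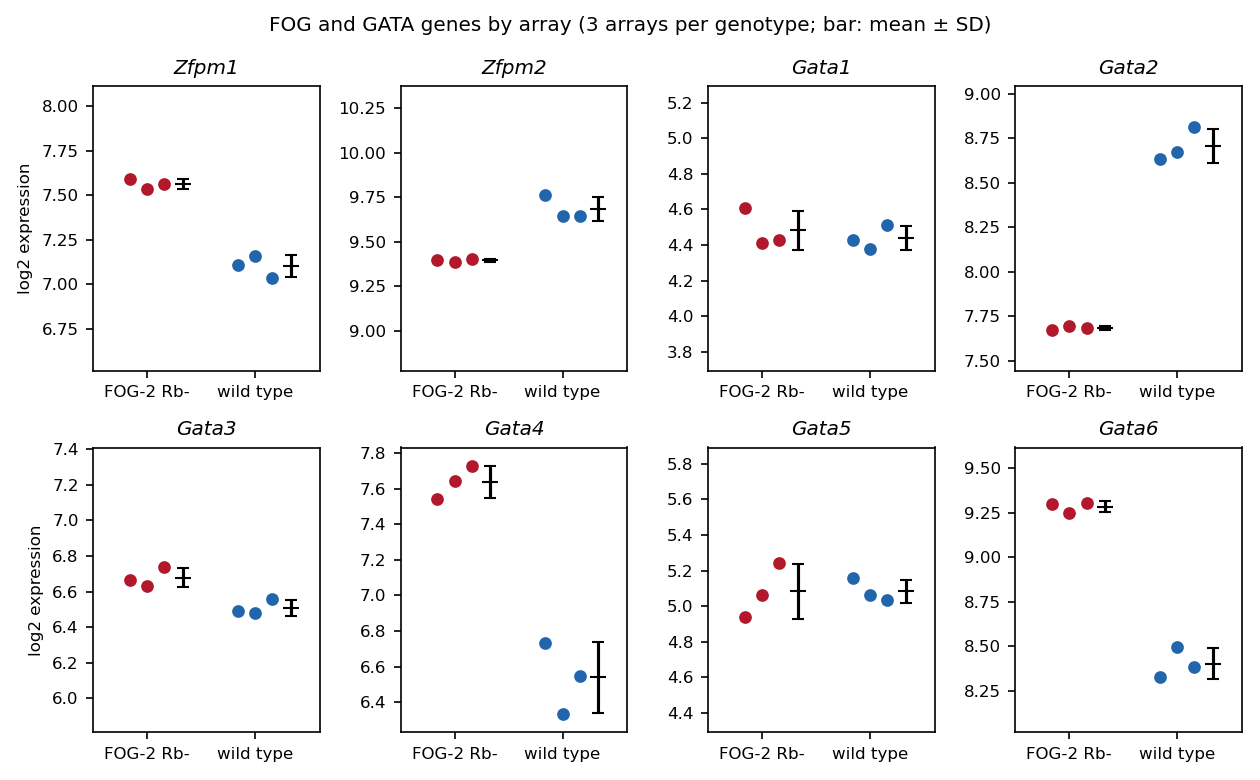
Log2 expression of the 8 FOG and GATA genes, 1 panel per gene; each point is 1 array, with FOG-2 Rb- on the left and wild type on the right, bars give the mean ± SD of 3 arrays, and every panel spans the same height. Gata2, Gata4, Gata6, Zfpm1 and Zfpm2 show separate groups, the Gata3 groups stand apart by 0.07, and the Gata1 and Gata5 groups overlap.

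Zfpm2, the gene that carries the knock-in, measured 9.40, 9.39 and 9.40 in FOG-2 Rb- replicates 1 to 3, against 9.76, 9.65 and 9.64 in wild type replicates 1 to 3. All 3 knock-in arrays lay below all wild type arrays, by at least 0.24. The mean was 9.40 ± 0.0070 in FOG-2 Rb- and 9.68 ± 0.068 in wild type (SD, n = 3 each), which is 1.22-fold lower (log2 fold change -0.29, SE 0.051, 95% interval -0.41 to -0.17, adjusted p = 0.00913). That size ranked 3325 among all rows, so the fall was called but small. An altered binding motif need not change the level of a transcript, so this row does not check the genotype labels.

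Zfpm1, whose product FOG-1 partners GATA1 in red cell and platelet precursors, measured 7.59, 7.54 and 7.56 in FOG-2 Rb- replicates, against 7.11, 7.16 and 7.04 in wild type replicates. The groups were at least 0.37 apart. It rose 1.37-fold (log2 fold change 0.46, SE 0.051, 95% interval 0.34 to 0.58, adjusted p = 0.0013), so the transcripts of both FOG genes changed in opposite directions.

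Gata4, a factor of heart, gonad and foregut mesoderm, measured 7.54, 7.64 and 7.73 in FOG-2 Rb- replicates, against 6.73, 6.34 and 6.55 in wild type replicates. Its lowest knock-in array exceeded its highest wild type array by 0.81. The means were 7.64 ± 0.091 in FOG-2 Rb- and 6.54 ± 0.20 in wild type (SD, n = 3 each), and the gene rose 2.14-fold (log2 fold change 1.10, SE 0.10, 95% interval 0.85 to 1.35, adjusted p = 0.000687). Wild type Gata4 had the widest spread of the 8 genes in either genotype, with an SD of 0.20 beside a median of 0.080 over all rows in wild type.

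Gata6, which acts beside GATA4 in heart and endoderm, measured 9.30, 9.25 and 9.30 in FOG-2 Rb- replicates, against 8.33, 8.50 and 8.38 in wild type replicates. Again no array overlapped, and the gap was 0.75. It rose 1.84-fold (log2 fold change 0.88, SE 0.057, 95% interval 0.75 to 1.02, adjusted p = 0.000131). Gata4 and Gata6 ranked 230 and 380 by size of change among all rows. Gata5, the third factor of this subgroup, measured 4.94, 5.07 and 5.24 in FOG-2 Rb- replicates, against 5.16, 5.06 and 5.03 in wild type replicates. The knock-in arrays lay on both sides of the wild type ones, and the difference was -0.00078 (95% interval -0.20 to 0.20, adjusted p = 0.997).

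Gata2, a factor of blood stem cells, mast cells and preadipocytes, was the GATA gene that fell. It measured 7.67, 7.70 and 7.68 in FOG-2 Rb- replicates, against 8.63, 8.67 and 8.81 in wild type replicates. The groups were 0.93 apart. The means were 7.68 ± 0.012 in FOG-2 Rb- and 8.71 ± 0.095 in wild type (SD, n = 3 each), 2.03-fold lower (log2 fold change -1.02, SE 0.059, 95% interval -1.16 to -0.88, adjusted p = 7.75e-05). Of all 8 genes it had the smallest p. In the authors' deposited table the ratio of mutant to wild type was 0.493 for Gata2, 2.14 for Gata4 and 1.84 for Gata6. Only 104 of the 2040 rows called lower fell by as much or more, Gata2 included.

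Gata3, which directs T helper and mammary cell fates and also restrains preadipocytes, measured 6.67, 6.63 and 6.74 in FOG-2 Rb- replicates, against 6.49, 6.48 and 6.56 in wild type replicates. Its groups did not overlap, with a gap of 0.07, but the difference of 0.17 missed the threshold (SE 0.052, 95% interval 0.05 to 0.29, adjusted p = 0.068). With the dimmest 25% of rows left out before the fit, the adjusted p was 0.0446, within a range of 0.0446 to 0.195 over 14 other settings. Gata1, the main erythroid factor, measured 4.61, 4.41 and 4.43 in FOG-2 Rb- replicates, against 4.43, 4.38 and 4.51 in wild type replicates. Those arrays overlapped (log2 fold change 0.04, 95% interval -0.12 to 0.21, adjusted p = 0.745). Only 28.9% of rows were dimmer than Gata1 and 41.1% than Gata5, and changes of rows near the background of an array are understated. This limit bears on every fold size below where 1 genotype lay at such a level.

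**Figure D2:**
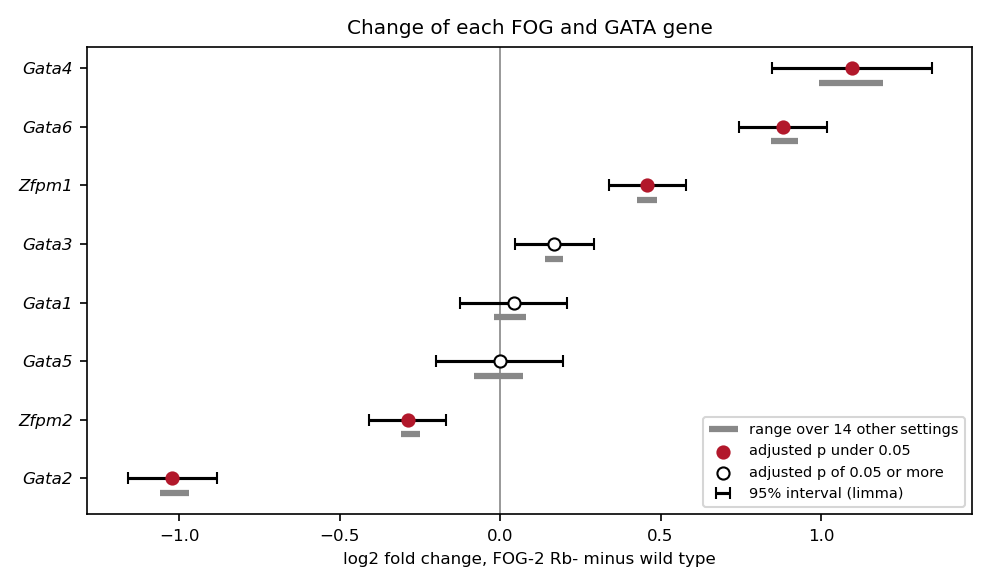
Log2 fold change (FOG-2 Rb- minus wild type, horizontal axis) of the 8 genes; points are limma estimates from 3 arrays per genotype with 95% intervals, filled where the adjusted p is under 0.05, and grey bars give the range over 14 other settings. Gata4 (1.10), Gata6 (0.88) and Zfpm1 (0.46) lie above 0, Zfpm2 (-0.29) and Gata2 (-1.02) below, and the ranges of these 5 stay on their side.

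RefSeq start sites (assembly GRCm38.p6) were matched for 5 of the 8 genes, and those of the called members among them, Zfpm1 and Gata2, are shown as the sequences next to the start of transcription. Each runs from 250 bases before to 50 after a start. Gata2 has 2 such starts, which the single Gata2 row does not separate. Capitals mark GC boxes (GGGCGG or its reverse complement CCGCCC) and CCAAT boxes (CCAAT or ATTGG).
Gata2, first start, chr6:88193641-88193940, plus strand: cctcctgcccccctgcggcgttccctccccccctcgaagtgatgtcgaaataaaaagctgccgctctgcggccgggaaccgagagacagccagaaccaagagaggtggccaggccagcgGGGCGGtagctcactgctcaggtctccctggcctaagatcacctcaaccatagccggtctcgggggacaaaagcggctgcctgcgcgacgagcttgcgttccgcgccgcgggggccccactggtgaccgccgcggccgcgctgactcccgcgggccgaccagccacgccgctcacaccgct
Gata2, second start, chr6:88198414-88198713, plus strand: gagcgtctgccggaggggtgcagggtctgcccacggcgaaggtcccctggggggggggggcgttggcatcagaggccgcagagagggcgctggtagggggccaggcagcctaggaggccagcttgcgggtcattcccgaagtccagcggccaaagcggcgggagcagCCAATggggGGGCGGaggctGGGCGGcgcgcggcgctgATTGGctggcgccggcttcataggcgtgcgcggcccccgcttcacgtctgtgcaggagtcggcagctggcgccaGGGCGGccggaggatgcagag
Zfpm1, chr8:122281891-122282190, plus strand: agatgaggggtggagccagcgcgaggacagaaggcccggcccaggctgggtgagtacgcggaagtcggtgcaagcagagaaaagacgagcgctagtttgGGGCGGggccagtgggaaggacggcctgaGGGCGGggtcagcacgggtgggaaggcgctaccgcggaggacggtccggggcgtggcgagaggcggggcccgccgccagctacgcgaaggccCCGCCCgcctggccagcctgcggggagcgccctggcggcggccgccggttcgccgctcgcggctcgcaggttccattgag
The second Gata2 window held 3 GC boxes and 2 CCAAT boxes, the first held 1 GC box and the Zfpm1 window 3 GC boxes. Among 32851 windows of this length in the table, 35.7% held a GC box and 37.4% a CCAAT box on either strand. The letters GATA, or TATC on the other strand, were in none of these 3 windows and in 57.9% of all windows; the windows of Gata1 and Gata3 held 1 each. The E2F motif TTTCCCGC or GCGGGAAA was in none of the 3 windows and in 1.07% of all. A match describes letters in a window and no binding.

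Of the 48 measured genes that lie nearest to the 8 members in RefSeq order, 3 on each side of each, 3 rose, 3 fell and 42 did not pass. These 6 calls stand beside 18% of all rows. Gata6os, a long noncoding RNA gene that overlaps Gata6 in the RefSeq table, measured 6.78, 6.85 and 6.74 in FOG-2 Rb- replicates, against 5.56, 5.70 and 5.88 in wild type replicates. It rose 2.11-fold (log2 fold change 1.08, SE 0.086, adjusted p = 0.00031), with no overlap of arrays. Gata6os and the neighbours of Gata2, Gata3 and Gata5 named here were chosen after their values were seen. How far the rows of Gata6 and Gata6os share probes was not tested. Of the 3 nearest measured genes on each side of Gata4, and of Zfpm1, the test called none (limma; at an unadjusted p under 0.05, 2 and 2 of 6, and by the unmoderated test 0 and 0). Beside Gata2 the same window held 1 lower gene, the helicase gene Ruvbl1 (log2 fold change -0.29), beside Gata5 1 lower, Cables2 (-0.18, adjusted p = 0.0422), and beside Gata3 1 higher, the noncoding 5031426D15Rik (2.82-fold, log2 fold change 1.50, adjusted p = 0.000115).

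Around Zfpm2, Angpt1, which encodes the TIE2 ligand angiopoietin-1 and is the third measured gene on one side, had 5.70, 5.64 and 5.46 in FOG-2 Rb- replicates, against 7.49, 7.43 and 7.52 in wild type replicates. This is a log2 fold change of -1.88 (adjusted p = 1.52e-05), far larger than that of Zfpm2. The next gene, Rspo2, a Wnt agonist picked after its value was seen, had 6.91, 7.03 and 7.01 in FOG-2 Rb-, against 9.34, 9.27 and 9.30 in wild type (log2 fold change -2.32, adjusted p = 1.91e-06). Directly beside Zfpm2, Oxr1, an oxidation resistance gene, rose by 0.23 (adjusted p = 0.0239). Of the 10 nearest measured genes on each side, a window also set after values were seen, 4 rose, 3 fell and 13 did not pass, beside 18% called among all rows.

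**Figure D3:**
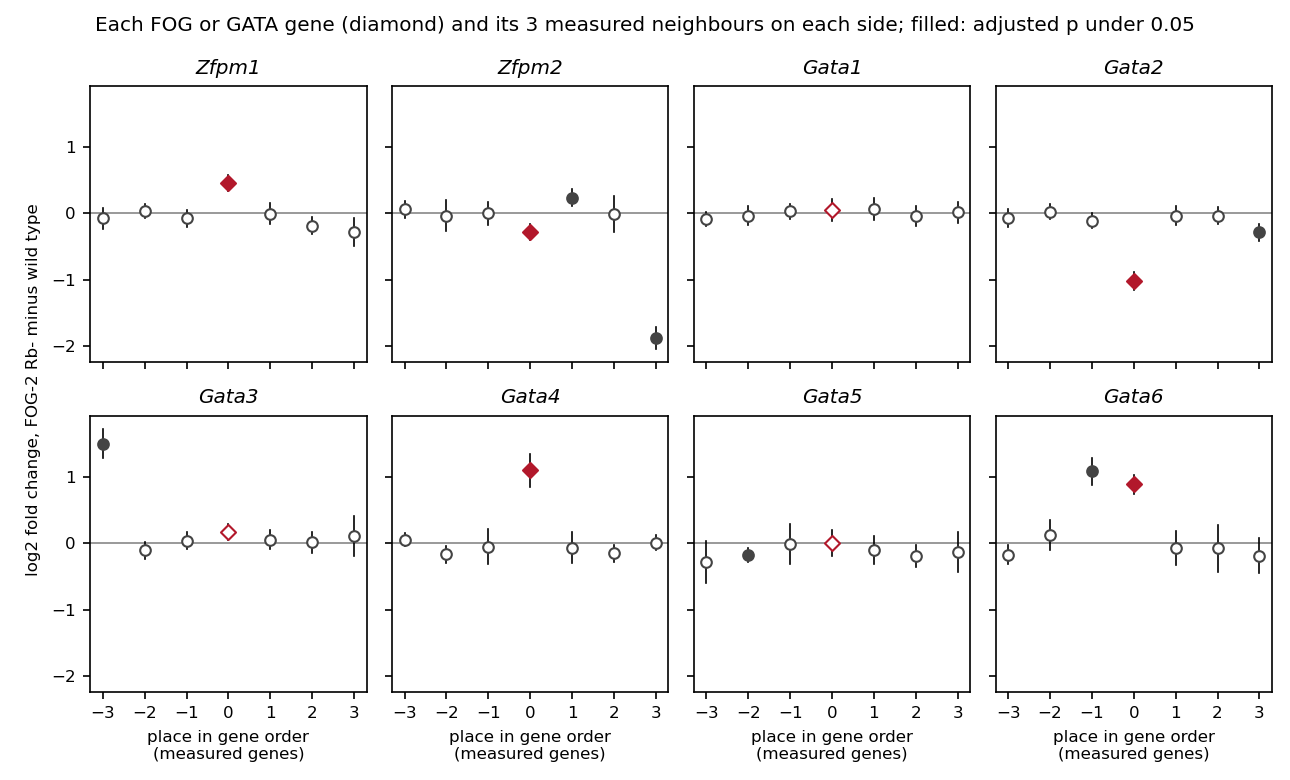
Log2 fold change (FOG-2 Rb- minus wild type, vertical axis) of each FOG or GATA gene (diamond) and of the 3 nearest measured genes on each side in RefSeq order (circles), with 95% limma intervals from 3 arrays per genotype; filled symbols have an adjusted p under 0.05. Most neighbours sit near 0; Gata6os (1.08), Angpt1 (-1.88) and 5031426D15Rik (1.50) do not.

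Genes of proteins that work with FOG and GATA factors were called in both directions, and the difference between these lists, or from the 18% of all rows called, was not tested. Of 15 NuRD and CtBP genes, 1 rose (the remodeller gene Chd3, log2 fold change 0.24, adjusted p = 0.0206), 1 fell (Gatad2a, a NuRD subunit with a GATA-type finger, -0.19, adjusted p = 0.0344) and 13 did not pass. The fall was lost without any 1 array (0 lower), and the rise was kept only without wild type replicate 3 or without FOG-2 Rb- replicate 1 (otherwise 0 higher). Of 25 DNA-binding and co-activator partners, 5 fell (4 with FOG-2 Rb- replicate 1 or 3 dropped), 2 rose and 18 did not pass. Tbx20, a cardiac T-box factor gene, had 5.08, 5.09 and 4.90 in FOG-2 Rb- replicates, against 7.26, 7.13 and 6.87 in wild type replicates, and fell 4.19-fold (adjusted p = 4.77e-05). The FOG-2 Rb- mean of Tbx20, 5.02, lay below every array median, so its fold size may be understated. Mef2c, a muscle and heart factor gene, fell 2.66-fold, Tbx5, a limb and heart factor that binds GATA4, 2.51-fold, and Nr2f2, which encodes the nuclear receptor COUP-TFII, 1.57-fold (adjusted p = 9.61e-05, 2.88e-05 and 0.000534). The fifth fall was Runx1 (-0.26) and the rises were Crebbp (0.33), a histone acetyltransferase gene, and Fli1 (0.31), all 3 named after their values were seen. Trps1, an atypical GATA-type repressor gene, had 8.39, 8.34 and 8.52 in FOG-2 Rb-, against 9.45, 9.51 and 9.47 in wild type. That is 2.09-fold lower (adjusted p = 7.42e-05), the sole call among 3 atypical GATA finger genes (2 lower without wild type replicate 2). Of the retinoblastoma family, Rbl1 fell (-0.46, adjusted p = 0.00195), and Rb1 (0.12) and Rbl2 (-0.12) did not pass. For all 3, arrays of the genotypes did not overlap, against 35.6% of all rows. All 3 had an unadjusted limma p under 0.05, as did 29.9% of all rows, and the unmoderated test called 2.

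Genes known from other tissues as targets of GATA factors moved in part and both ways. Among all rows, 9.44% were called higher and 8.59% lower. Of 13 endoderm genes under GATA4 and GATA6, 5 rose and 8 did not pass, with a median difference of 0.01 on the log2 scale. Dropping wild type replicate 2, or any 1 FOG-2 Rb- array, left 4 rises. The basement membrane genes Lama1 and Col4a1 rose 1.48-fold and 1.47-fold, the forkhead factor gene Foxa2 1.45-fold and the endocytic adaptor gene Dab2 1.21-fold (adjusted p = 0.000257, 0.000445, 0.0129 and 0.00659). The fifth, Lamb1 (0.23), is a basement membrane gene too, named after its value was seen. Of 12 gonadal and steroidogenic targets of GATA4, 3 fell and 2 rose. The testis and cartilage factor gene Sox9 fell 2.60-fold, the gonadal homeobox gene Lhx9 1.69-fold and the inhibin subunit gene Inhbb 1.48-fold (adjusted p = 3.03e-05, 9.59e-05 and 0.0107). Fst, which encodes an activin inhibitor, rose 1.24-fold (adjusted p = 0.00722), and the other rise was Star (0.18); 1 rise was left without any 1 array except wild type replicate 3. Of 11 cardiac targets, 1 rose (the sodium-calcium exchanger gene Slc8a1, 0.31, adjusted p = 0.0321) and 1 fell (the cyclin gene Ccnd2, -0.18, adjusted p = 0.0409). The fall was lost without any 1 array (0 lower), and the rise without any 1 except wild type replicate 3 (0 higher). Nppa, the natriuretic peptide gene long used as a GATA4 reporter and picked after its value was seen, had a difference of -0.01. Nppb, the other natriuretic peptide gene of the list, picked likewise, had 0.16 with no overlap of arrays, but did not pass (limma, adjusted p = 0.165). For 4 of the 11 cardiac targets arrays did not overlap, against 35.6% of all rows. An unadjusted limma p under 0.05 was also found for 4, as for 29.9% of all rows.

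Of 20 haematopoietic, mast cell and endothelial targets of GATA2, 2 rose, 2 fell and 16 did not pass, while 18% of all rows were called. Kdr, a VEGF receptor gene, had 7.62, 7.62 and 7.64 in FOG-2 Rb-, against 5.31, 5.05 and 5.41 in wild type. It rose 5.18-fold (adjusted p = 1.64e-05), while Edn1, which encodes endothelin-1, rose 1.29-fold. Cd34, a surface marker of progenitors, fell 2.56-fold (adjusted p = 0.000289), and Runx1 fell 1.19-fold. Only 1 fall was left when FOG-2 Rb- replicate 1 or 3 was dropped. Kdr in wild type (mean 5.26) and Cd34 in FOG-2 Rb- (4.82) lay below every array median, so their fold sizes may be understated. Among 9 measured erythroid targets of GATA1, 1 rose (Epor, the erythropoietin receptor gene, 0.23, adjusted p = 0.034), a call lost without any 1 array except wild type replicate 1 (0 higher). Of 9 targets of GATA3, Spry1, a feedback inhibitor gene of growth factor signalling, rose 1.48-fold (adjusted p = 0.000803) and the oestrogen receptor gene Esr1 fell 1.24-fold (adjusted p = 0.0153; 0 lower without wild type replicate 2).

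Adipogenic genes listed as downstream of GATA2 and GATA3 were partly higher. An action of these factors on them was not tested here. Of 10, 3 rose, 1 fell and 6 did not pass, the same counts without any 1 array, beside 9.44% of all rows called higher and 8.59% lower. Adipoq and Cd36, named after their values were seen, did not pass, and only 9.46% and 11.3% of rows were dimmer. Fabp4, a fatty acid carrier gene, rose 3.98-fold, Pparg, the master regulator of fat cells, 1.76-fold and Lpl, the lipoprotein lipase gene, 1.38-fold, and Cebpd fell 1.51-fold (adjusted p = 0.000191, 0.000139, 0.000531 and 0.00111). FOG-2 is also known to bind and inhibit PI3 kinase. Of 12 measured genes of that pathway, 2 fell and 10 did not pass: the catalytic subunit gene Pik3cb, 1.75-fold (adjusted p = 0.00033), and Foxo1, 1.20-fold (adjusted p = 0.0304). Without any 1 array except wild type replicate 2, 1 fall was left.

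**Figure D4:**
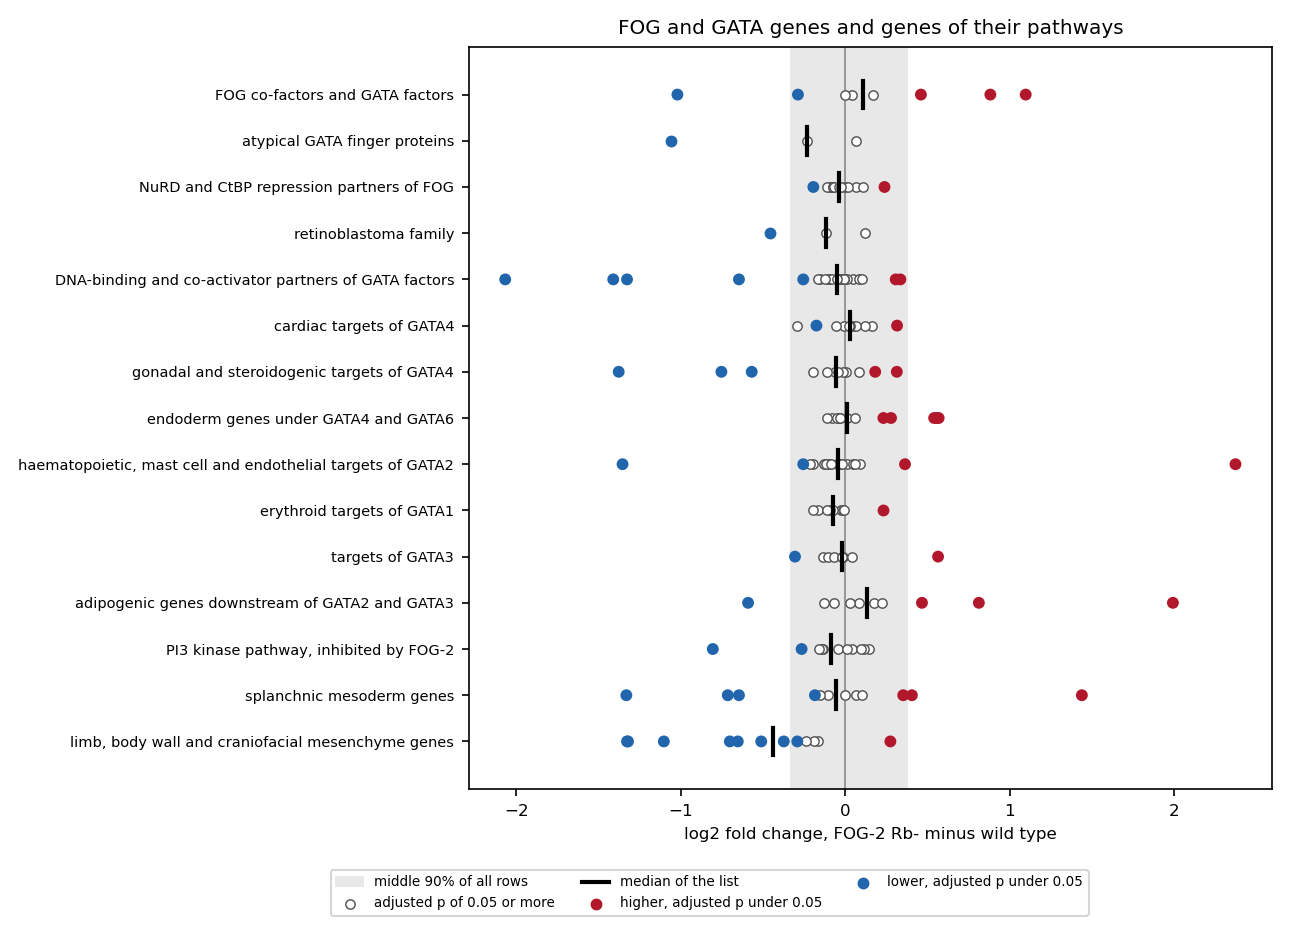
Log2 fold change (FOG-2 Rb- minus wild type, horizontal axis) of each measured gene in the FOG and GATA group and in 14 related lists; filled points have an adjusted p under 0.05, black bars are list medians, and the grey band holds the middle 90% of all rows (-0.33 to 0.37). The limb, body wall and craniofacial list has the lowest median (-0.44), and the called members of the other lists lie on both sides of 0 in most of them.

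Over these 14 lists, which held 154 measured genes besides the 8 members, 22 genes rose (14.3%), 27 fell (17.5%) and 105 did not pass, beside 9.44% and 8.59% of all rows. Their median log2 fold change was -0.04, beside -0.02 over all rows. The lists were chosen with earlier results of these data known, so these shares do not test for an excess over all rows.

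Genes listed for mesenchyme of different body regions fell for the most part in the limb, body wall and craniofacial list. They went both ways in the splanchnic list, whose median log2 fold change was -0.06 beside -0.02 over all rows. Whether these lists report where the cultured cells came from was not tested. Of 12 measured limb, body wall and craniofacial genes, 8 fell, 1 rose and 3 did not pass, the same counts without any 1 array, with a median of -0.44. For both lists the shares over all rows are 8.59% lower and 9.44% higher, and the difference from them was not tested. Besides Tbx5, the homeobox genes Alx1 and Prrx2 fell 2.50-fold and 1.63-fold, and Pax1, which encodes a paired box factor, 2.15-fold (adjusted p = 0.00214, 0.00128 and 0.000396); the rise was Prrx1 (0.27), named after its value was seen. Of 12 splanchnic mesoderm genes, 3 rose and 4 fell. Bmp4, a growth factor gene, had 10.39, 10.31 and 10.38 in FOG-2 Rb-, against 8.92, 9.00 and 8.84 in wild type, and rose 2.71-fold (adjusted p = 1.8e-05). The homeobox gene Nkx2-3 fell 2.52-fold and the forkhead gene Foxf2 1.64-fold (adjusted p = 0.000761 and 0.000161), as did Nr2f2; Osr1 (-0.19) fell too, and Foxf1 (0.40) and Wnt2 (0.35) rose, all 3 named after their values were seen. Leaving out any 1 FOG-2 Rb- array gave 2 rises and 3 falls. Wild type replicate 1 left out gave 2 rises and 4 falls, and wild type replicate 2 or 3 left out gave 3 and 3.

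Of 10 mesothelium markers, 6 rose, 1 fell and 3 did not pass. Over all rows, 9.44% were called higher and 8.59% lower, and these shares stand beside every marker list here. Differences of the lists from them were not tested. Their mean log2 level per array was 6.46 to 6.51 in FOG-2 Rb-, against 5.61 to 5.78 in wild type. Upk1b (log2 fold change 3.27) and Krt18 (2.24) weigh most in that mean, and the median log2 fold change of the list was 0.60. Upk1b, a uroplakin gene, rose 9.68-fold, the keratin gene Krt18 4.72-fold and Upk3b 2.44-fold. Msln, which encodes mesothelin and was named after its value was seen, fell 2.35-fold. The part of these marker shifts in the levels of Gata4 and Gata6 was not tested. In bulk samples, more or fewer cells of a type and more or less RNA per cell cannot be told apart. Of 7 endothelial markers, Kdr was the sole call; the mean level of the list was 5.05 to 5.14 in FOG-2 Rb-, against 4.75 to 4.85 in wild type, but without Kdr the other 6 averaged 4.62 to 4.72 in FOG-2 Rb-, against 4.64 to 4.77 in wild type. The defining markers Pecam1 (0.09) and Cdh5 (0.04), named after their values were seen, did not pass. Of 7 macrophage markers, Cd68 (0.69) and Csf1r (0.34) rose, of which 1 was left when replicate 2 or 3 of either genotype was dropped, at a mean level of 5.27 to 5.33 in FOG-2 Rb-, against 5.15 to 5.22 in wild type. Without these, the other 5 averaged 4.69 to 4.76 in FOG-2 Rb-, against 4.69 to 4.79 in wild type. The defining markers Ptprc (-0.01), Adgre1 (-0.06), Itgam (-0.12) and Tyrobp (0.01) did not pass, and 11.1% of rows were dimmer than Ptprc. All but Itgam of these were named after their values were seen. Of 6 mast cell markers, Cma1 (0.28) rose, and of 6 skeletal muscle markers, Des (0.40), and both calls were lost (0 higher) when replicate 2 or 3 of either genotype was dropped. Of 7 neural markers, Stmn2 (-0.76) fell and Map2 (0.23) rose, the rise going (0 higher) when FOG-2 Rb- replicate 1 or wild type replicate 2 was dropped, and of 6 gonadal support cell markers Sox9 fell. In the cardiomyocyte, erythroid, epithelial and sex-linked lists, limma called 0 of 22 genes, with 3 at an unadjusted p under 0.05 and 0 called by the unmoderated test; the cardiomyocyte list had 1 higher without wild type replicate 3.

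For each called member, the named genes with the most similar profile were those with the smallest root mean square distance over the 6 arrays, after each gene's wild type mean was subtracted, among 18251 named genes. Nearest to Gata4 were Cdc42ep5 (0.069), the lymphatic growth factor gene Vegfc (0.077) and Adcy1 (0.082). Nearest to Gata6 were Pawr (0.026), an apoptosis regulator gene, Ankrd44 (0.033) and Siglecg (0.039). Gata2 had Osbpl3 (0.048), Myom1 (0.050) and Stc1 (0.055), which encodes stanniocalcin-1, as its nearest genes. Zfpm2 was followed by Plp2 (0.015), the homeobox gene En1 (0.017) and the SOX factor gene Sox5 (0.020), and Zfpm1 by Ano3 (0.027), Fam214a (0.030) and Fbxl7 (0.032). These distances describe 6 arrays in 2 groups, and a small distance mostly means a like change between genotypes.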

How the data were processed

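Total RNA of 6 mouse embryonic fibroblast samples was labelled with an Affymetrix whole transcript kit, per the labels' protocols. The authors deposited log2 expression values made with RMA and Partek, per the submitters' processing notes, with 1 value per Entrez gene and array. Of these tools no version is recorded, and the genome build was not given in the sources used here. Scanner files were not used here. A deposited comparison table gives a ratio of mutant to wild type and an unadjusted p-value per gene, per the file headers. The number of arrays limits the precision.

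The 23748 rows entered 1 linear model per row with genotype as the only term and no filter, moderated by eBayes (limma 3.58.1, R 4.3.3), with Benjamini-Hochberg adjustment at 0.05. The script was tested on simulated data, with 50 rows changed at each size. It called 20% of log2 changes of 0.3, 60% of 0.5, 92% of 1.0 and 100% of 2.0. A gene that did not pass may therefore still have a small change. The simulation called 143 rows, far fewer than the data did, so these shares need not hold for the data. Fold sizes are powers of 2 of the log2 differences. Gene symbols came from the platform annotation and were updated through Entrez IDs with RefSeq (GRCm38.p6); 23111 rows had a symbol.

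The members and lists were chosen with earlier results of these data known. Named genes are all members, up to 4 called genes of largest change per pathway list, up to 3 per marker list with any fibroblast marker, the 3 most like genes per called member, and 3 neighbours on each side of Zfpm2.

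Alternatives left out each array, added a replicate block, changed the variance prior, the normalization or the filter on dim rows, or took the authors' p-value. No label pairs the samples by number, and the main model did not pair them. Deviations of same-numbered samples correlated at 0.0314, 0.0176 and 0.00208, which neither show a pairing nor exclude one.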

Additional observations from a re-analysis of the deposited data

How the results depend on the processing

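The 5 called members kept their direction and their call under all 14 alternatives. Among these, the unmoderated test and the authors' p-value gave the same adjusted p (0.00327 for Gata2), so they are not separate checks. The adjusted p of Zfpm2 (limma) ranged over the 14 alternatives from 0.000271 to 0.0374. That of Gata4 ranged from 1.32e-05 (limma) to 0.0142 (unmoderated test). Gata3 passed under 1 alternative, without the dimmest 25% of rows, with a log2 fold change of 0.17 and an adjusted p of 0.0446. Over all rows, leaving out 1 array gave 1492 to 1856 higher and 1313 to 1668 lower, against 2241 and 2040 with all arrays. The lowest counts, 1492 and 1313, came without FOG-2 Rb- replicate 3; why was not tested. An intensity trend in the prior gave 2887 higher and 2608 lower. With the replicate number as a block, 1681 rows were higher and 1500 lower, 3 members rose and 2 fell, and the adjusted p was 0.0334 for Zfpm2, 0.0111 for Zfpm1 and 0.0967 for Gata3. Deviations of same-numbered samples correlated at 0.0314 at most, and FOG-2 Rb- replicate 2 correlated about as much with wild type replicate 3 (0.0205) as with replicate 2 (0.0176); these values neither show a pairing nor exclude one. List counts of 1 or 2 calls moved most. Low signal limits Gata1 and Gata5, and 3 arrays per genotype limit every value.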
